A study of Mus musculus with 12 samples.

Results

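The 10 genes described here break down heme and move, store or sense iron. They were chosen by gene symbol: the heme oxygenases Hmox1 and Hmox2, the biliverdin reductases Blvra and Blvrb, the heme transporter Slc48a1, the ferritin subunits Fth1 and Ftl1, the iron exporter Slc40a1, the transferrin receptor Tfrc and the iron regulator Ireb2. All 10 were found among the 29030 genes listed in the deposited tables, and all 10 passed the filter on low counts at both time points.

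RNA was sequenced from primary cardiac fibroblasts of C57BL/6 mice, the connective tissue cells that build the matrix of the heart, grown in DMEM with 10% fetal bovine serum. There were 4 groups of 3 libraries: ethanol vehicle for 4 h, 6 µM MCB-613-10-1 for 4 h, vehicle for 24 h and 6 µM MCB-613-10-1 for 24 h. MCB-613-10-1 is a derivative of MCB-613, a small molecule that stimulates the steroid receptor coactivators, and the series asks which transcripts respond to it in these cells. The labels give no transgene or deletion in any group, no age or sex of the mice, and no word on whether replicates were separate cultures or animals, so the p-values speak of library-to-library spread, and that spread could be technical alone.

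Heme is opened by heme oxygenase into biliverdin, carbon monoxide and free iron, and biliverdin reductase turns biliverdin into bilirubin. The freed iron is held in ferritin, a shell of heavy and light chains, or leaves the cell through ferroportin, the product of Slc40a1, while transferrin-bound iron enters through the transferrin receptor. Iron regulatory proteins, one of them made from Ireb2, bind hairpins in several of these mRNAs when iron is scarce. In many cell types the transcription factor NRF2 raises Hmox1 and ferritin mRNA, which is why these genes are often followed in oxidative stress.

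The 4 h libraries held between 26869195 and 31596784 counts, the 24 h libraries between 25016754 and 34877090. Levels are given in CPM, counts scaled to a common library size with TMM factors over all 12 libraries, and levels of different genes are compared only after division by gene length (CPM per kilobase). That length is the deposited one, which was longer than the annotated principal transcript for each of the 10 genes. Orders and ratios between genes depend on it, while changes of a gene between groups do not. Between a vehicle and a treated library the correlation of log2 CPM over genes was 0.98 to 0.988 at 4 h and 0.914 to 0.928 at 24 h. Of the genes called at 4 h, 48.2% were higher with MCB-613-10-1, against 34.5% when libraries were scaled to their totals instead of TMM. At 24 h these shares were 49.1% and 39.0%, and that scaling took the median log2 fold change of all genes to -0.06 at 4 h and -0.21 at 24 h. The summed level of 12 fibroblast markers was 20884 to 24819 CPM in vehicle at 24 h and 10724 to 10972 CPM in treated libraries. The matrix genes Fn1 or Col1a1 had the highest mean level of these markers in each group. At 24 h 10 of the 12 were called lower and 1 higher. The 15 macrophage markers summed to 381 to 450.1 CPM in vehicle and 168 to 190.4 CPM in treated libraries at 24 h, with none at 0, and to 106 to 115 CPM in vehicle and 76.1 to 98.6 CPM in treated libraries at 4 h. In bulk RNA, fewer cells of a type and less RNA per cell cannot be told apart. Of 10 erythroid markers, which would accompany heme-rich cells, none passed the filter, the sum stayed between 0.165 and 0.790 CPM, and both alpha-globin genes were at 0 in every group.

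With MCB-613-10-1, 6 of the 10 genes rose within 4 h and none fell. The 6 were Hmox1, Slc40a1, Blvrb, Slc48a1, Fth1 and Ftl1, in falling order of fold change. Among all 15336 genes tested at 4 h, 3.45% were called higher and 3.71% lower (edgeR quasi-likelihood test, adjusted p under 0.05). That background of 1098 genes was between 443 (without treated 4 h replicate 3) and 1760 (without vehicle 4 h replicate 1) when 1 library was left out, and 2198 with the 24 h libraries fitted too. By 24 h the same test called all 10 genes, 7 higher and 3 lower. At that time it called 36.7% of 15575 genes higher and 38% lower, so a call was common. The genes were chosen with earlier results of these data known. These counts and the medians below are therefore no test of whether the set differs from all genes. The median log2 fold change of the 10 genes was 0.59 at 4 h and 0.82 at 24 h, beside -0.01 and -0.02 over all genes tested.

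**Figure D1:**
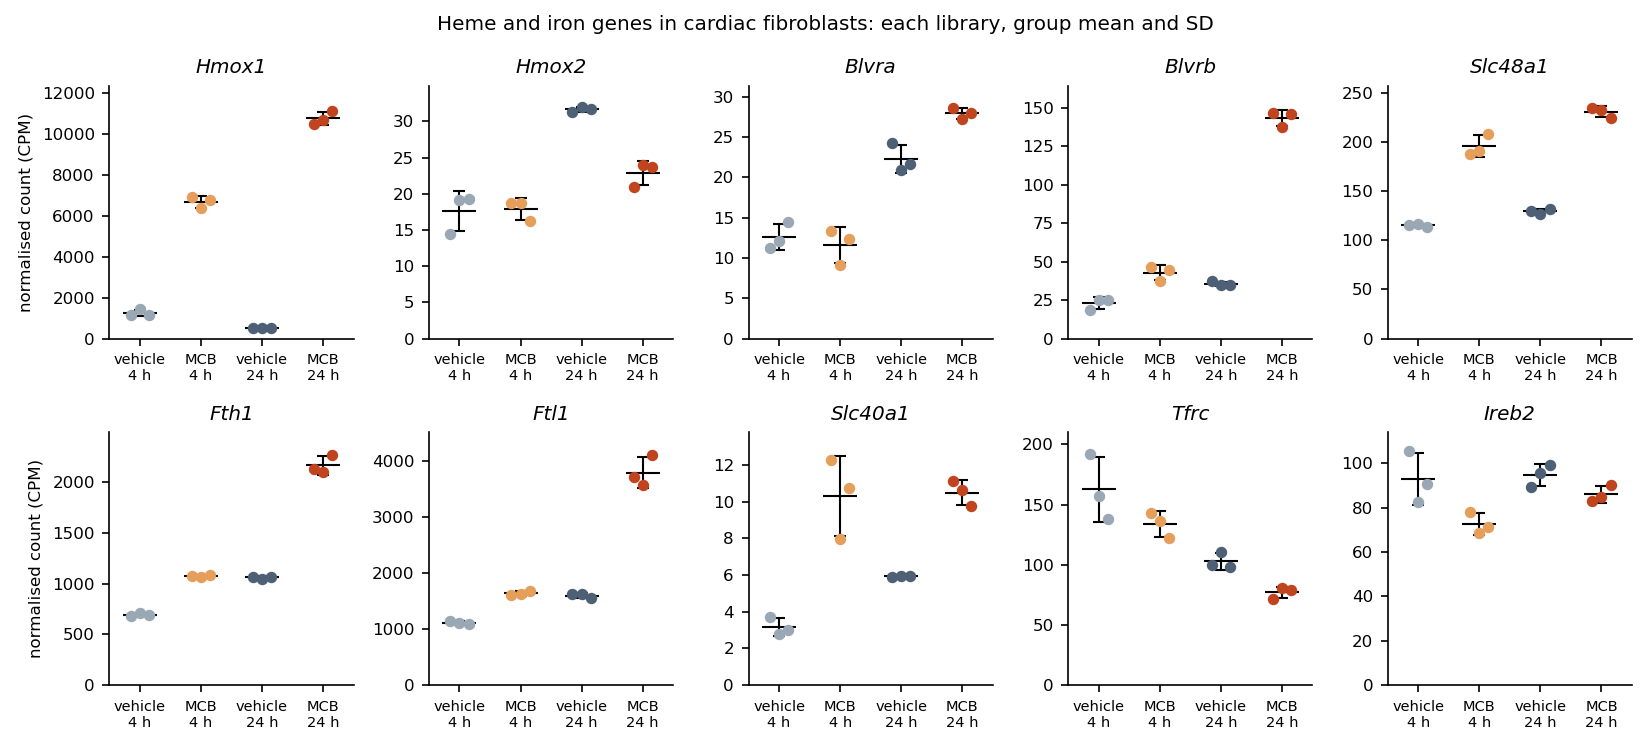
Normalised counts (CPM, linear axes from 0) of the 10 genes in each of the 12 libraries; points are libraries, horizontal marks group means and bars the SD (n = 3), with MCB standing for 6 µM MCB-613-10-1. Hmox1, Blvrb, Slc48a1, Fth1, Ftl1 and Slc40a1 lie higher in every treated library than in every vehicle library of the same time.

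Hmox1, the inducible heme oxygenase (ENSMUSG00000005413, chromosome 8 from 75820249 to 75827217 in GRCm39), carried by far the most counts of the 10 genes once the cells were treated. Its levels at 4 h were 1167, 1444 and 1163 CPM in vehicle and 6948, 6366 and 6787 CPM with MCB-613-10-1. At 24 h they were 535, 528 and 518 CPM in vehicle and 10504, 10705 and 11133 CPM with MCB-613-10-1. The groups lay far apart at both times, and the treated libraries rose above the 4 h ones while the vehicle libraries sank below theirs.

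The response of Hmox1 was 5.33-fold at 4 h (log2 fold change 2.41 ± 0.10 SE, edgeR adjusted p = 1.13e-07) and 20.4-fold at 24 h (4.35 ± 0.05 SE, edgeR adjusted p = 5.9e-22). At 4 h it ranked 10 of 15336 genes by rise, and at 24 h 101 of 15575. By deposited counts over deposited gene length, Hmox1 ranked highest of 17359 protein-coding genes in all 6 treated libraries. How reads that match several genes were counted is not stated. The ranks are therefore ranks of deposited counts and not of mRNA abundance. In vehicle it ranked between 19 and 23 at 4 h and between 81 and 86 at 24 h. It took 0.667% of all counts in treated libraries at 4 h and 0.990% at 24 h, compared with 0.130% and 0.0556% in vehicle.

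Hmox2, the constitutive heme oxygenase (ENSMUSG00000004070, chromosome 16 from 4544225 to 4584606), gave a different picture. At 4 h it stood at 14.4, 19.2 and 19.2 CPM in vehicle and 18.8, 18.7 and 16.2 CPM with MCB-613-10-1, and the groups overlapped. Its log2 fold change at 4 h was 0.02 with a 95% interval from -0.27 to 0.32 (edgeR adjusted p = 0.935), and -0.03 when scaled to library totals. At 24 h vehicle libraries held 31.3, 32.0 and 31.7 CPM and treated ones 21.0, 23.9 and 23.7 CPM.

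Every treated library at 24 h lay below every vehicle library, a fall of 0.48 on the log2 scale (SE 0.07, edgeR adjusted p = 8.85e-06), or 1.39-fold lower. Cdip1 lies on the opposite strand and shares 16395 bases of gene span with Hmox2. Whether the counting used strand is not stated, so reads in shared exons cannot be assigned. Cdip1 counts were 76.9% to 184% of those of Hmox2 and went the other way at 24 h, with a log2 fold change of 0.53 (edgeR adjusted p = 6.42e-06).

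As a level per kilobase, Hmox1 exceeded Hmox2 in every library. The ratio was 91.4 ± 13.3 (SD, n = 3) in vehicle and 476.5 ± 50.3 in treated cells at 4 h, and 21.1 ± 0.50 and 599 ± 33.6 at 24 h. The treated and vehicle ratios did not overlap at either time.

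Blvra and Blvrb encode enzymes named biliverdin reductases, and Blvrb also reduces flavins. Which of them acts on the biliverdin that heme oxygenase forms in these cells was not measured. Blvra (ENSMUSG00000001999, chromosome 2 from 126912585 to 126939004) stood at 11.2, 12.1 and 14.4 CPM in vehicle and 13.4, 9.15 and 12.4 CPM in treated libraries at 4 h. These groups overlapped, and the log2 fold change of -0.11 had a 95% interval from -0.46 to 0.24 (edgeR adjusted p = 0.713). At 24 h the levels were 24.2, 20.9 and 21.7 CPM in vehicle and 28.6, 27.3 and 28.0 CPM in treated libraries.

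Blvra rose at 24 h by 0.32 on the log2 scale (SE 0.08, edgeR adjusted p = 0.00113), with every treated library above every vehicle library. The call was lost when libraries were scaled to their totals, where the log2 fold change was 0.12 (adjusted p = 0.168).

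Blvrb (ENSMUSG00000040466, chromosome 7 from 27147403 to 27165569) answered sooner and more strongly. It went from 18.4, 25.3 and 25.3 CPM in vehicle to 46.6, 37.3 and 44.5 CPM with MCB-613-10-1 at 4 h, a 1.86-fold rise (log2 0.90 ± 0.14 SE, edgeR adjusted p = 0.00231). At 24 h it went from 37.2, 35.01 and 34.6 CPM to 146, 137 and 146 CPM, a 4.00-fold rise (log2 95% interval 1.89 to 2.11, edgeR adjusted p = 7.64e-17). Neither pair of groups overlapped.

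Per kilobase, the ratio of Blvrb to Blvra was 1.61 ± 0.21 (SD, n = 3) in vehicle and 3.27 ± 0.28 in treated cells at 4 h, then 1.41 ± 0.06 and 4.51 ± 0.08 at 24 h. Blvrb was thus the more abundant mRNA of this pair in all 12 libraries, by a wider margin in each treated group than in its vehicle group. The ratio compares mRNA levels and is no measure of bilirubin formation.

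Slc48a1 (ENSMUSG00000081534, chromosome 15 from 97676401 to 97690573) encodes HRG1, which carries heme out of lysosomes into the cytosol. Its levels were 115, 116 and 114 CPM in vehicle and 187, 191 and 208 CPM with MCB-613-10-1 at 4 h. At 24 h they were 129, 127 and 132 CPM in vehicle and 235, 233 and 224 CPM with MCB-613-10-1. Both pairs of groups were well separated, with rises of 1.70-fold at 4 h (log2 0.76 ± 0.08 SE, edgeR adjusted p = 0.000183) and 1.77-fold at 24 h (log2 0.83 ± 0.04 SE, edgeR adjusted p = 2.64e-12).

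The end of Slc48a1 overlaps that of Hdac7 on the other strand by 29 bases of gene span. Hdac7 fell by 0.94 on the log2 scale at 24 h (edgeR adjusted p = 7.58e-11), opposite to Slc48a1.

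**Figure D2:**
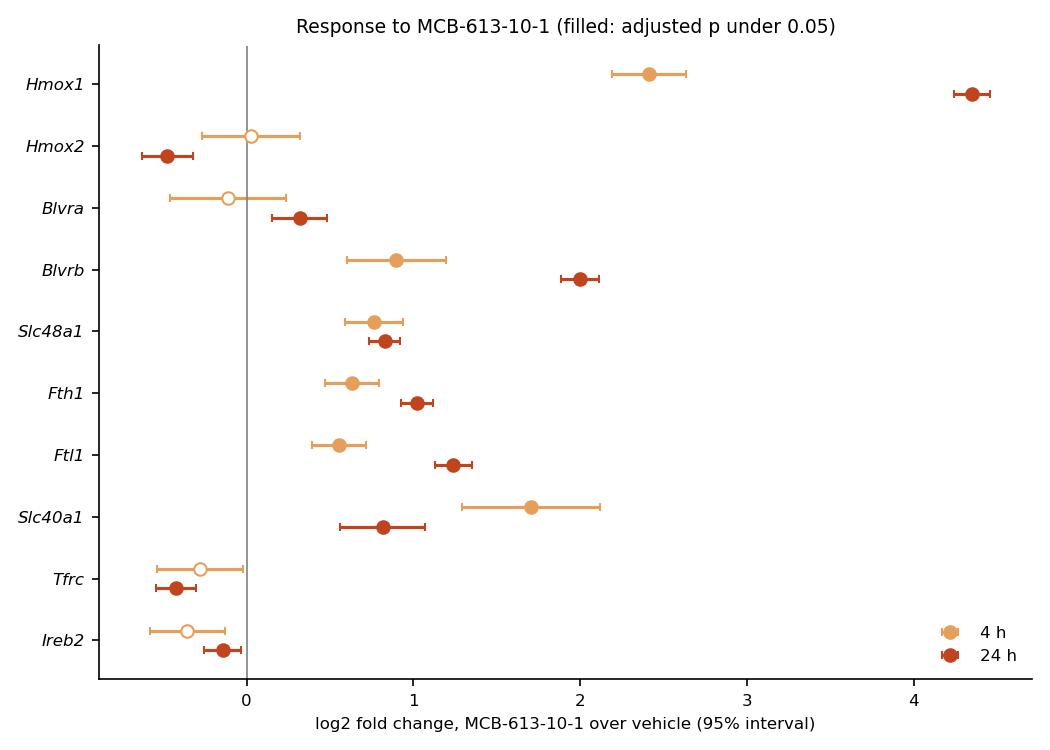
Log2 fold change of MCB-613-10-1 over vehicle for each gene at 4 h and 24 h (n = 3 libraries a group), with 95% intervals from the edgeR fit; filled symbols passed an adjusted p of 0.05. Hmox1 has the largest value at each time, and Tfrc and Ireb2 lie below 0 at both.

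Of the iron genes, 4 carry an iron-responsive element, the hairpin that iron regulatory proteins hold. In the 5′ untranslated region a bound hairpin blocks translation, and in the 3′ untranslated region it slows decay of the mRNA. The elements were searched in GENCODE M21 transcripts (GRCm38) as CNNNNNCAGTGN on the transcript strand followed by 5 bases that pair with the 5 N bases, G-U pairs allowed. Such a match was present in 1.34% of 21901 protein-coding genes, with 0.142% holding it in the 5′ and 0.589% in the 3′ untranslated region. They are shown 5′ to 3′ because the genes fall into those that carry the hairpin before the coding region and the one that carries it after; capitals mark the bulged C and the 6-base loop.
Fth1, 5′ untranslated region: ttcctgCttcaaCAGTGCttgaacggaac
Ftl1, 5′ untranslated region: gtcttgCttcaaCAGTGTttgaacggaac
Slc40a1, 5′ untranslated region: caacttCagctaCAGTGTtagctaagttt
Tfrc, 3′ untranslated region, element 1: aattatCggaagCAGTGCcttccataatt
Tfrc, 3′ untranslated region, element 2: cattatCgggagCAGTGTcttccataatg
Tfrc, 3′ untranslated region, element 3: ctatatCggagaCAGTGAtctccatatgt
Tfrc, 3′ untranslated region, element 4: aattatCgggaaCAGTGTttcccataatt

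In the principal transcripts the Fth1, Ftl1 and Slc40a1 elements ended 115, 153 and 207 bases before the start codon, and the first Tfrc element began 888 bases after the stop codon. The ferritin stems are the same 5 paired bases in both subunits. No match was present in the principal transcripts of the other 6 genes. The genes with a 5′ element all rose with MCB-613-10-1 at 4 h and at 24 h, and the gene with 3′ elements was lower at 24 h, as described next. Among the genes without a match, Hmox1, Blvrb and Slc48a1 also rose at both times. Blvra was called higher at 24 h only, and Hmox2 and Ireb2 were called lower at 24 h. These are mRNA levels, and translation was not measured here.

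Fth1 (ENSMUSG00000024661, chromosome 19 from 9957962 to 9962462) makes the heavy chain of ferritin, which oxidises iron for storage. It measured 679.5, 710.1 and 695 CPM in vehicle and 1073, 1070.4 and 1086 CPM in treated libraries at 4 h. At 24 h it measured 1069, 1049 and 1069.9 CPM in vehicle and 2135, 2097 and 2270.4 CPM in treated libraries. The vehicle libraries at 24 h already stood where the treated ones stood at 4 h, and treated libraries lay above vehicle at both times. The rise was 1.55-fold at 4 h (log2 0.63 ± 0.07 SE, edgeR adjusted p = 0.000376) and 2.03-fold at 24 h (log2 1.02 ± 0.05 SE, edgeR adjusted p = 1.3e-13).

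Ftl1 (ENSMUSG00000050708, chromosome 7 from 45107368 to 45109308), the light chain that helps the iron core form, followed the same course. It measured 1138, 1115 and 1086 CPM in vehicle and 1604, 1627 and 1677 CPM in treated libraries at 4 h, then 1621, 1621 and 1554 CPM against 3707, 3569 and 4104 CPM at 24 h. Treated and vehicle libraries did not overlap. The rise was 1.47-fold at 4 h (log2 0.56 ± 0.07 SE, edgeR adjusted p = 0.000993) and 2.36-fold at 24 h (log2 1.24 ± 0.05 SE, edgeR adjusted p = 5.01e-14).

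Per kilobase, Ftl1 ranked between 13 and 20 among protein-coding genes in vehicle and between 6 and 8 in treated libraries at 4 h. At 24 h it ranked between 9 and 10 in vehicle and was in rank 6 in each treated library. The 2 ferritin genes together took 0.187% of counts in vehicle and 0.270% in treated cells at 4 h, and 0.281% and 0.547% at 24 h. The ratio of Ftl1 to Fth1 per kilobase stayed between 3.76 and 4.68 over the 12 libraries. It was 3.90 ± 0.12 (SD, n = 3) in vehicle and 4.53 ± 0.14 in treated cells at 24 h, groups that did not overlap. The size of this ratio depends on the deposited lengths, 1340 bases for Ftl1 and 3469 for Fth1. Their principal transcripts held 968 and 1494 bases, so the ratio is no measure of subunit proportions. The difference between groups does not depend on length.

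Ferritin genes have near-identical copies that can take or give reads. Ftl1-ps1 held 1.46% to 2.07% of the Ftl1 count and moved with it, by 0.59 at 4 h and 1.37 at 24 h on the log2 scale. The other listed ferritin relatives, copies of Fth1 included, held at most 0.0515% of the Ftl1 count. Reads discarded for matching several genes would show in none of these counts, so the shares do not bound such a loss. Gm10252, on the opposite strand of Ftl1, held at most 0.708%.

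Slc40a1 (ENSMUSG00000025993, chromosome 1 from 45947228 to 45965683), which encodes ferroportin, was the scarcest of the 10 genes per kilobase in every group. Its raw counts were 77 to 344 a library. At 4 h it stood at 3.69, 2.76 and 3.01 CPM in vehicle and 12.3, 7.97 and 10.7 CPM with MCB-613-10-1. At 24 h it stood at 5.90, 5.97 and 5.96 CPM in vehicle and 11.1, 10.6 and 9.75 CPM with MCB-613-10-1.

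All treated libraries of Slc40a1 exceeded all vehicle libraries of their time, and the treated mean was 10.3 ± 2.18 CPM (SD, n = 3) at 4 h and 10.5 ± 0.70 CPM at 24 h. The rise was 3.26-fold at 4 h (log2 1.71 ± 0.19 SE, edgeR adjusted p = 0.000271), rank 34 of 15336 genes. At 24 h it was 1.76-fold (log2 0.82 ± 0.12 SE, edgeR adjusted p = 5.45e-06). Macrophages, which recycle red cell iron, also express this gene. The macrophage marker sums given above were lower in treated than in vehicle libraries at both times, while Slc40a1 was higher. Lyz2 had the highest mean level of these markers in every group. Of 12 markers tested at 4 h, only Lyz2 was called, and it was lower. Of 13 tested at 24 h, 11 were called lower and 2 higher. Between 4 h and 24 h in vehicle the sums moved with Slc40a1: all 13 tested macrophage markers were called higher, and so was Slc40a1. Their part in these results was not tested.

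Tfrc (ENSMUSG00000022797, chromosome 16 from 32427738 to 32451612), the receptor that takes up transferrin-bound iron, moved the opposite way. At 4 h it stood at 192, 157 and 138 CPM in vehicle and 143, 136 and 122 CPM in treated libraries, and one vehicle library fell within the treated range. The log2 fold change of -0.28 (95% interval -0.54 to -0.02) was not called at 4 h (edgeR adjusted p = 0.177). At 24 h it stood at 99.8, 111 and 97.9 CPM in vehicle and 71.7, 80.6 and 78.6 CPM in treated libraries.

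The groups of Tfrc were separate at 24 h, where it fell by 0.42 on the log2 scale (SE 0.06, edgeR adjusted p = 1.62e-06), or 1.34-fold lower. The ratio of Slc40a1 to Tfrc mRNA per kilobase was 0.0134 ± 0.0015 (SD, n = 3) in vehicle and 0.0531 ± 0.011 in treated cells at 4 h. At 24 h it was 0.0398 ± 0.0025 and 0.0942 ± 0.011, again with no overlap of vehicle and treated libraries. The size of this ratio depends on the deposited lengths, 9000 bases for Slc40a1 and 6185 for Tfrc. Their principal transcripts held 3370 and 4890 bases. Protein and iron were not measured, so the ratio is no measure of iron flow.

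Ireb2 (ENSMUSG00000032293, chromosome 9 from 54771073 to 54819814) encodes an iron regulatory protein that binds the hairpins shown above. At 4 h its levels were 106, 82.4 and 90.4 CPM in vehicle and 78.1, 68.3 and 71.4 CPM in treated libraries. All treated libraries were lower, but the log2 fold change of -0.35 ± 0.10 SE missed the threshold (edgeR adjusted p = 0.0618). In the authors' deposited table the same gene had an adjusted p of 0.0312 at 4 h and 0.0577 at 24 h, a reverse order of calls.

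At 24 h the Ireb2 levels were 89.2, 95.5 and 99.1 CPM in vehicle and 83.1, 84.6 and 90.3 CPM in treated libraries, which overlapped. The call at 24 h rested on a fall of 0.14 on the log2 scale (SE 0.05, edgeR adjusted p = 0.0215). It was lost with DESeq2 (adjusted p = 0.0707), with all 12 libraries in the fit (0.161) and without vehicle 24 h replicate 3 (0.104), treated 24 h replicate 1 (0.0822) or treated 24 h replicate 2 (0.0644). At 4 h the reverse held: Ireb2 passed without the filter on low counts (0.0159), with DESeq2 (0.0396), with all 12 libraries (0.00934), scaled to library totals (0.0395) and without vehicle 4 h replicate 2 (0.0400).

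**Figure D3:**
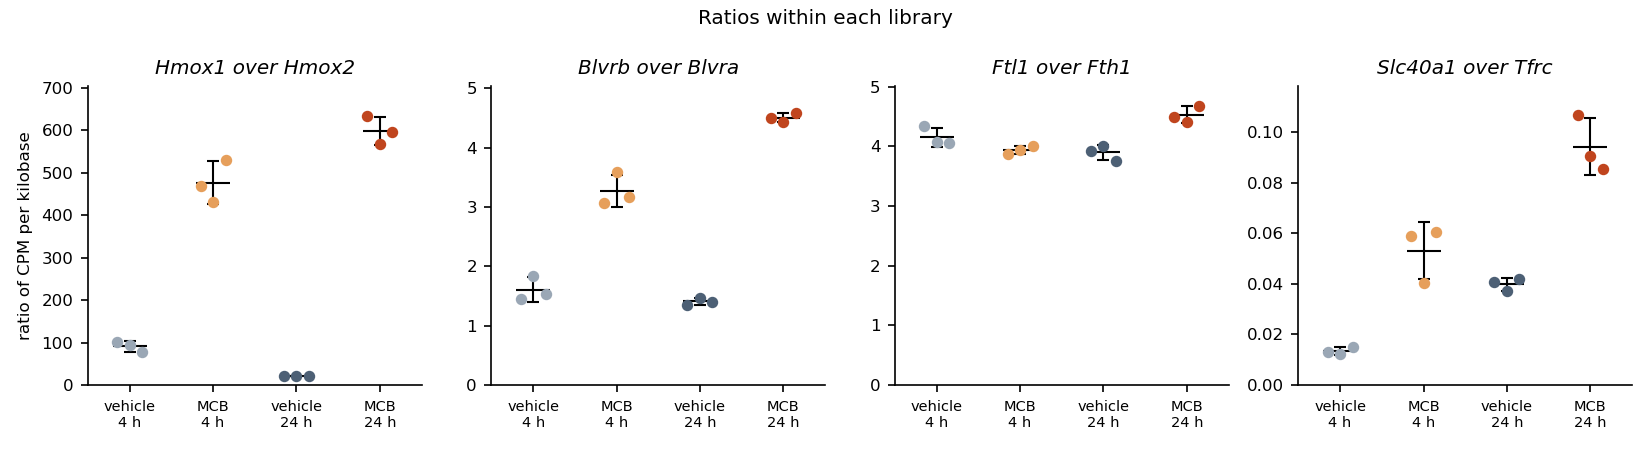
Ratios of CPM per kilobase within each library for 4 gene pairs (linear axes from 0); points are libraries, marks and bars the group mean and SD (n = 3). Hmox1 over Hmox2 reaches 599 in treated cells at 24 h, while Ftl1 over Fth1 stays between 3.76 and 4.68. The size of each ratio depends on the deposited gene lengths used.

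Set in order of level per kilobase, vehicle cells at 4 h held Ftl1 at 831 ± 19.4 and Hmox1 at 718 ± 91.9 CPM per kilobase (SD, n = 3), whose libraries overlapped. Then came Fth1 at 200.3 ± 4.42, Slc48a1 at 41.9 ± 0.45 and Tfrc at 26.3 ± 4.39. Next were Ireb2 at 9.79 ± 1.24, Blvrb at 8.27 ± 1.42 and Hmox2 at 7.95 ± 1.24; the libraries of Blvrb overlapped those of both others, while every Ireb2 library lay above every Hmox2 library. Blvra at 5.15 ± 0.67 and Slc40a1 at 0.351 ± 0.053 closed the list. This order depends on the deposited lengths, which were 9479 bases for Ireb2, 2782 for Blvrb and 2446 for Blvra. The principal transcripts of these genes held 5770, 1028 and 1160 bases.

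In treated cells at 24 h the order per kilobase was led by Hmox1 at 6157 ± 184 CPM per kilobase, Ftl1 at 2831 ± 207, Fth1 at 625 ± 26.3, Slc48a1 at 83.8 ± 2.04 and Blvrb at 51.5 ± 1.83, with no overlap between neighbours. Below them, Tfrc at 12.4 ± 0.75 overlapped Blvra at 11.4 ± 0.27. Hmox2 at 10.3 ± 0.73 overlapped Ireb2 at 9.08 ± 0.40, and Slc40a1 remained lowest at 1.17 ± 0.08. At 24 h Hmox1 lay below Ftl1 in every vehicle library and above it in every treated one. With the deposited lengths the same held for Blvrb against Tfrc. That crossing depends on the length used, 2782 bases for Blvrb and 6185 for Tfrc as deposited. Their principal transcripts held 1028 and 4890 bases. The order of this list depends on the length used as well.

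The 2 time points were compared within vehicle and within treated cells, on counts of all 12 libraries. The 24 h group names carry an unexplained prefix, KDC, and whatever it marks cannot be told apart from time in these contrasts or in the difference between responses. The share of counts in ribosomal RNA genes moved with time, from 0.571% to 1.12% in the 4 h libraries and from 2.31% to 4.11% in the 24 h libraries, and its part in the time contrasts was not tested. In vehicle, 7 of the 10 genes were higher at 24 h than at 4 h and 2 were lower, where 27.4% of 16341 genes were called higher and 27% lower. Hmox1 fell by 1.25 on the log2 scale (edgeR adjusted p = 4.3e-10) and Tfrc fell by 0.66 (edgeR adjusted p = 2.35e-05). Slc40a1, Hmox2, Blvra, Blvrb, Fth1 and Ftl1 rose by 0.91, 0.85, 0.83, 0.63, 0.61 and 0.52 in log2 fold change. Slc48a1 rose by 0.17 (edgeR adjusted p = 0.0289), a call lost without vehicle 4 h replicate 3, vehicle 24 h replicate 1 or vehicle 24 h replicate 3 (0.0689, 0.0693 and 0.0876) and without the filter (0.0774). Ireb2 had a log2 difference of 0.03 with a 95% interval from -0.15 to 0.20.

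In treated cells, 8 genes were higher at 24 h than at 4 h and Tfrc was lower, where 30% of genes were called higher and 31.9% lower. Blvrb rose by 1.74, Blvra by 1.26, Ftl1 by 1.21, Fth1 by 1.01 and Hmox1 by 0.69 in log2 fold change, each with an adjusted p of 3.03e-07 or less in the edgeR fit. Tfrc fell by 0.80 (edgeR adjusted p = 1.87e-06). Slc40a1 showed 0.02 with a 95% interval from -0.29 to 0.34, and -0.09 when scaled to library totals. Hmox2, Ireb2 and Slc48a1 rose by 0.35, 0.24 and 0.24; scaled to library totals their adjusted p was 0.0671, 0.206 and 0.0953. The Hmox2 call was also lost without treated 4 h replicate 3 (0.0534), and the Ireb2 call without treated 4 h replicate 2 or 3 or treated 24 h replicate 3 (0.0844, 0.0525 and 0.0737).

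**Figure D4:**
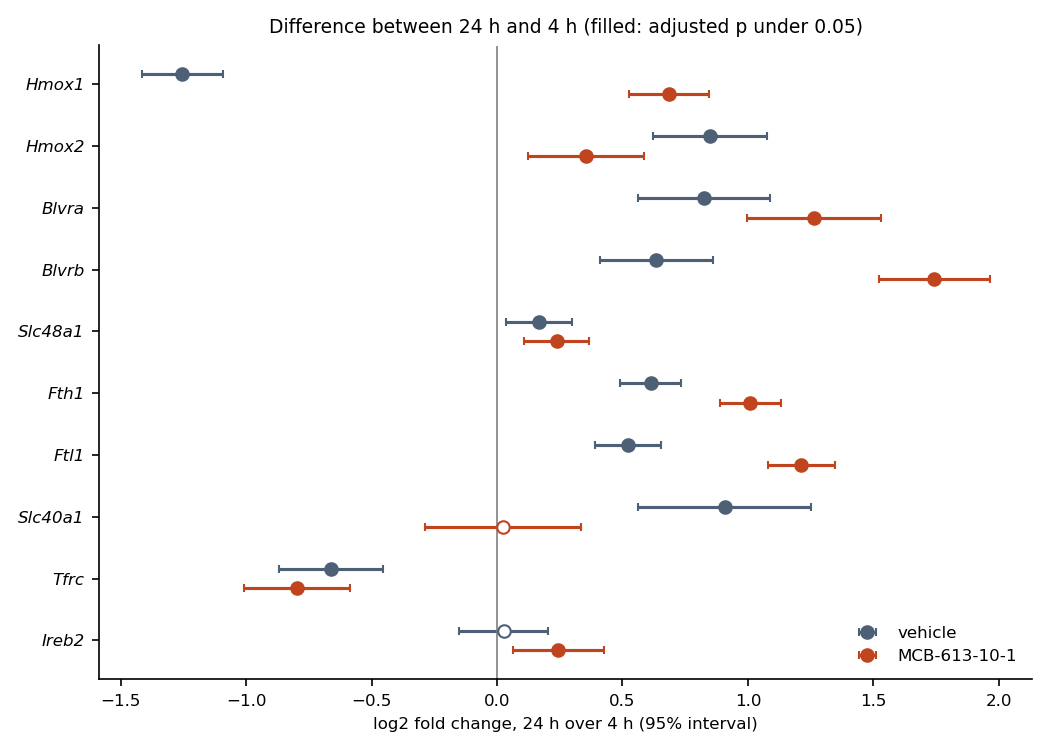
Log2 fold change of 24 h over 4 h for each gene, in vehicle and in MCB-613-10-1 libraries (n = 3 a group), with 95% intervals from the edgeR fit of all 12 libraries; filled symbols passed an adjusted p of 0.05. Hmox1 is at -1.25 in vehicle and 0.69 in treated cells, and Tfrc is below 0 in both.

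Whether the response itself differed between 24 h and 4 h was tested with an interaction term over the 12 libraries. The difference was called for 7 of the 10 genes, 5 with a larger and 2 with a smaller value at 24 h, where 26.7% of genes were called higher and 27.1% lower. On the log2 scale it was 1.94 for Hmox1 (SE 0.11, edgeR adjusted p = 1.43e-10), 1.11 for Blvrb, 0.69 for Ftl1 and 0.40 for Fth1. The larger Hmox1 response at 24 h thus joined a lower vehicle level and a higher treated level.

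Slc40a1 had the smaller response at 24 h, by -0.88 (SE 0.22, edgeR adjusted p = 0.00242), with a vehicle level that was higher at 24 h and a treated level that differed by 0.02. In that same vehicle contrast the macrophage marker sum was between 106 and 115 CPM at 4 h and between 381 and 450.1 CPM at 24 h, and its part in the smaller response was not tested. Hmox2 had a difference of -0.49 (SE 0.15, edgeR adjusted p = 0.011). Blvra had 0.44 (SE 0.18, edgeR adjusted p = 0.0452), a call lost in 8 of 12 fits that left out 1 library and with library totals (0.194). Those fits were without vehicle 4 h replicate 2 or 3 (0.0516 and 0.14), treated 4 h replicate 2 (0.14, with a log2 difference of 0.29), vehicle 24 h replicate 2 or 3 (0.104 and 0.0931) or treated 24 h replicate 1, 2 or 3 (0.0854, 0.0649 and 0.0732).

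No difference between the responses was called for Slc48a1 (0.07, 95% interval -0.11 to 0.25, and -0.07 scaled to library totals), Tfrc (-0.14, -0.43 to 0.16) or Ireb2 (0.22, -0.03 to 0.47). Without vehicle 4 h replicate 1, the library with the highest Tfrc level, the Tfrc difference was -0.28 (edgeR adjusted p = 0.0254). Without vehicle 4 h replicate 2, the library with the lowest vehicle Ireb2 level, the Ireb2 difference was 0.29 (edgeR adjusted p = 0.0422). The responses share no libraries, but the vehicle and treated time contrasts enter the difference and are not separate evidence of it.

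The other genes of heme and iron metabolism were taken from 6 lists of 88 genes. At 4 h 4 of them were called, where 3.45% of all genes tested were called higher and 3.71% lower, so these counts are near the background. None of 10 tested heme synthesis genes, none of 9 iron uptake genes and none of 25 genes of mitochondrial iron and iron-sulfur clusters was called. In heme transport and binding 1 of 15 was called: Abcb10, a mitochondrial transporter needed for heme synthesis, fell by 0.41 on the log2 scale (43.7 ± 2.85 to 32.8 ± 1.55 CPM, n = 3, edgeR adjusted p = 0.0197). In the list of ferritin delivery and iron regulatory control 2 of 10 rose, Ftl1-ps1 and Herc2 (0.32, edgeR adjusted p = 0.0404). In the export list 1 of 7 rose, Heph, a ferroxidase that works with ferroportin, by 0.73 (14.3 ± 1.90 to 23.7 ± 2.71 CPM, edgeR adjusted p = 0.00631).

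At 24 h the lists split in both directions, as all genes did, with 36.7% of all genes tested called higher and 38% lower; the counts that follow are to be read against those shares. Of 10 heme synthesis genes 2 rose and 6 fell, with a median log2 fold change of -0.31 beside -0.02 over all genes tested. Slc25a38, which brings glycine into mitochondria for the pathway, went from 16.7 ± 0.42 to 43.1 ± 2.19 CPM (log2 1.36, edgeR adjusted p = 1.33e-12). Alad, the second enzyme of the pathway, went from 25.2 ± 1.05 to 13.4 ± 1.33 CPM (log2 -0.91, edgeR adjusted p = 1.95e-08).

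Of 15 heme transport and binding genes 5 rose and 6 fell at 24 h, with a median of -0.13. Flvcr2, a membrane transporter of the FLVCR family, went from 2.08 ± 0.34 to 8.40 ± 0.43 CPM (3.99-fold, edgeR adjusted p = 1.94e-09). Its vehicle level at 4 h was 7.15 ± 1.33 CPM, so the treated level at 24 h lay near that of the 4 h vehicle cells. Abcb6, a porphyrin transporter, rose by 2.24 at a low level, 0.363 ± 0.086 to 1.76 ± 0.09 CPM (edgeR adjusted p = 9.97e-06).

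Of 9 iron uptake and reduction genes 3 rose and 4 fell at 24 h, with a median of -0.09. The metalloreductases Steap2, from 124 ± 2.67 to 52.6 ± 6.95 CPM (log2 -1.24, edgeR adjusted p = 3.29e-08), and Steap4, from 0.879 ± 0.37 to 0.0671 ± 0.049 CPM (log2 -3.69, edgeR adjusted p = 3.08e-05), had the largest values in that list. Of 10 genes in the ferritin delivery list 6 rose and 1 fell, with a median of 0.31; Skp1, a subunit of the ubiquitin ligase that removes Ireb2 protein, went from 142 ± 4.06 to 254 ± 13.1 CPM (log2 0.83, edgeR adjusted p = 7.68e-12).

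Of 7 export genes 3 rose and 2 fell at 24 h, with a median of -0.10. Heph went from 30.5 ± 4.54 to 83.9 ± 5.82 CPM (log2 1.45, edgeR adjusted p = 1.26e-06), and Atp13a2, a lysosomal ATPase, from 32.6 ± 1.22 to 13.1 ± 1.73 CPM (log2 -1.31, edgeR adjusted p = 1.12e-10). Of 25 genes of mitochondrial iron and iron-sulfur clusters 9 rose and 8 fell, with a median of -0.05. Hspa9, the mitochondrial chaperone that serves cluster transfer, went from 674 ± 32.0 to 1689 ± 55.7 CPM (log2 1.32, edgeR adjusted p = 4.73e-15), and Ciao3, of the cytosolic cluster machinery, from 16.4 ± 1.94 to 40.7 ± 1.75 CPM (log2 1.31, edgeR adjusted p = 2.44e-11).

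**Figure D5:**
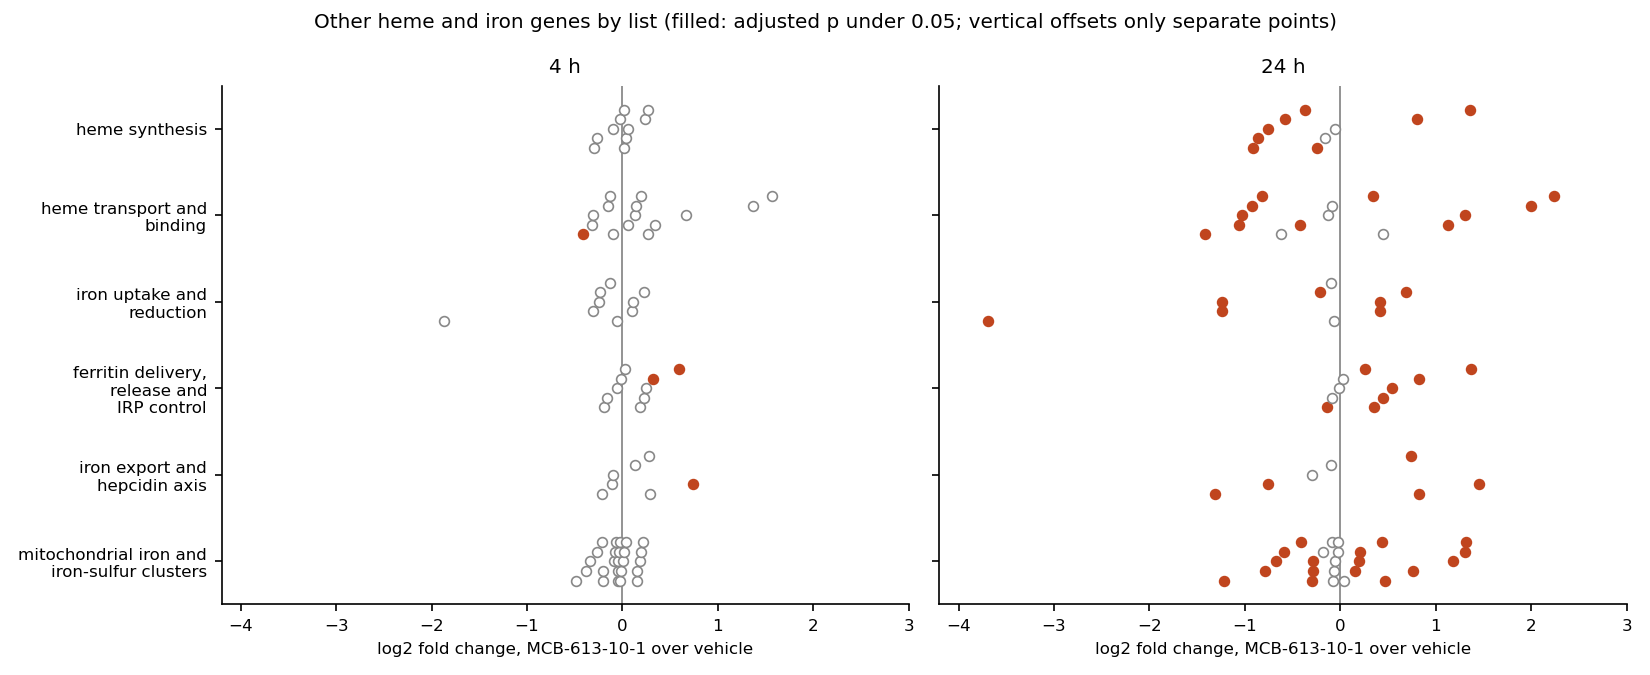
Log2 fold change of MCB-613-10-1 over vehicle for every tested gene of the 6 wider lists at 4 h and 24 h (n = 3 libraries a group); filled points passed an adjusted p of 0.05, and vertical offsets only separate points. At 4 h 4 genes are filled, and at 24 h points in each list are filled on both sides of 0.

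The genes whose log2 CPM followed Hmox1 most closely over the 12 libraries were Siah2 (Pearson r = 0.991), Prdm2 (0.989), Slc7a11 (0.989), Nav3 (0.988) and Dpf2 (0.988), out of 13765 protein-coding genes, and 146 genes had r over 0.95. Slc7a11, the cystine importer, also resembled Hmox1 in size, with log2 fold changes of 2.41 at 4 h and 4.01 at 24 h. Slc40a1 was followed by Layn (0.966), Ampd3 (0.966), Cbr3 (0.946), Fam13a (0.921) and Cys1 (0.916), and 2 genes had r over 0.95. Among the genes closest to Tfrc were Amd1 (0.988), Zfp638 (0.987), Socs4 (0.984) and Cep170 (0.984), and 98 genes had r over 0.95. The 12 points of each correlation share 4 groups and their library depths, so these values describe likeness only.

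Promoter windows from RefSeq (GRCm38.p6, 250 bases before to 50 after a gene's start) were on hand for 7 of the 10 genes, in 12 windows; Hmox1, Slc40a1 and Slc48a1 had no entry. They were searched on both strands for TGACNNNGC, the core of the antioxidant response element that NRF2 binds. A match was present in 1 of the 12 windows, that of Blvra, and in 12.4% of all 32851 windows. It lies at position -49 on the minus strand of the window chr2:127070407-127070706 and is shown in capitals as read on the strand of the gene, since Blvra was the weakest of the genes that rose at 24 h.
Blvra promoter: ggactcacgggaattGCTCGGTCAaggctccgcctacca
A match is a description of letters in this window and not a binding site, and no match says only that the letters are absent from it.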

How the data were processed

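RNA sequencing counts of 12 libraries in 4 groups of 3 were used. Per the submitters' processing notes, which give no role or order, the tools were DESeq2 (no version stated), featureCounts 1.5.0-p3 and HISAT2 2.0.5, with GRCm39 (mm39) as the build. Per the file headers the authors deposited, for each time, raw read counts per gene, gene length in bases, and their own log2 fold change and adjusted p-value. The tables list 26240 genes at 4 h and 27020 at 24 h. A gene listed at 1 time was given 0 counts at the other. The deposited FPKM values were not used. The group names in the 24 h table carry the prefix KDC, which the labels do not explain, so whatever it marks cannot be told apart from time.

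Counts were analysed in R 4.3.3 with edgeR 4.0.16 (filterByExpr, TMM, robust quasi-likelihood fits, Benjamini-Hochberg adjustment over all genes, threshold 0.05). The same procedure was run on simulated data with an equal spread for every gene and few changed genes. That setting differs from these libraries, so the simulation gives no error rate for the calls here. Each response used its own 6 libraries; time contrasts and the difference between responses used all 12. Log2 CPM for correlations had a prior count of 2. Intervals are 95%. Replicate numbers were not taken as pairs: the correlation of deviations within a number was 0.0878, 0.0832 and 0.109 at 4 h and 0.0133, 0.02 and -0.043 at 24 h. Alternatives were library totals or DESeq2 size factors for TMM, no filter, DESeq2 1.42.0, a replicate block, all 12 libraries in each response fit, and leaving out each library in turn. The genes and lists were chosen with earlier results of these data known. Named from each wider list are the 2 called genes with the largest absolute log2 fold change at each time; likeness names the 5 closest protein-coding genes, of which 1 is not reported here.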

Additional observations from a re-analysis of the deposited data

Results flagged for a closer look

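For 7 genes the response to MCB-613-10-1 differed between 24 h and 4 h by the test of that difference (edgeR interaction term, log2 scale). The response was larger at 24 h for Hmox1 by 1.94, Blvrb by 1.11, Ftl1 by 0.69, Blvra by 0.44 and Fth1 by 0.40. It was lower at 24 h for Slc40a1, with a difference of -0.88, and for Hmox2, with -0.49, where the response went from 0.02 to a fall of 0.48. With 26.7% of all genes called higher and 27.1% lower in this test, such a difference was common in these libraries. Groups of 3 libraries were too small to look for a single library far from the others.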

How the results depend on the processing

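The count of all genes called at 4 h moved most, from 1098 to 1953 under a replicate block, to 2198 when all 12 libraries were fitted together, and from 443 to 1760 when a library was left out (1760 without vehicle 4 h replicate 1; 672 without vehicle 4 h replicate 3; 634, 476 and 443 without treated 4 h replicates 1, 2 and 3). The counts of the 10 genes called stayed within 1.5 times their value in each comparison and alternative run. The replicate block called 8 of them at 4 h, adding Tfrc (adjusted p = 0.0444) and Ireb2 (0.0128). Of 630 single gene values recomputed, 584 kept direction and call, 26 lost and 9 gained the call, and 11 changed sign, none of them called. Scaled to library totals, Hmox2 at 4 h was -0.032, Slc40a1 in treated cells over time -0.091 and the Slc48a1 difference -0.072 (log2). With a library left out, Hmox2 at 4 h ranged from -0.10 to 0.093, with -0.012 and -0.0094 without treated 4 h replicate 1 or 2, Blvra at 4 h from -0.22 to 0.032, Slc40a1 in treated cells over time from -0.13 to 0.16 (-0.018 without treated 24 h replicate 1), and Ireb2 in vehicle over time from -0.050 to 0.13 (-0.0037 without vehicle 24 h replicate 3). The cause was not tested. Where a fit left 2 libraries in a group, the spread was pooled over the groups. Depth limited Slc40a1 most, at 77 to 344 counts a library.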
